A study of Homo sapiens with 6 samples.

Results

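The MYC, MAX and MXD network was followed through 10 genes, found by symbol in a table of 58735 genes: MYC, its partner MAX, the antagonists MXD1, MXD3, MXD4, MXI1, MNT and MGA, and the linked pair MLX and MLXIP. The list was chosen by the fold change of MYC after METTL16 silencing and by its spread among the control samples, so the values of MYC are given as a description, with no test. All 10 genes passed the filter on low counts that left 15089 genes. The RNA came from PANC-1, a long-established human line of pancreatic ductal adenocarcinoma grown with fetal bovine serum, as 3 samples given control siRNA (si-NC) and 3 samples given siRNA against METTL16 (si-METTL16). METTL16 is an RNA methyltransferase that writes N6-methyladenosine. The methods call the sequenced cells stably transfected, and for the stable silenced lines of the study they describe hairpin RNA, lentivirus and puromycin selection. Whether these were used for the sequenced samples is not stated, nor is the siRNA used or the time of harvest. The titles name the controls si-NC, while another label calls them wild type. The methods describe biological triplicates, and the p-values measure the spread between these samples only.

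MYC is a basic helix-loop-helix leucine zipper factor that cannot bind DNA well alone. With MAX, its obligate partner, it binds the E-box motif CACGTG and drives genes of growth, metabolism and division. The MXD proteins, MNT and MGA compete for MAX and bind the same motif, where most of them recruit histone deacetylases and repress. MLX has a parallel set of partners: it pairs with some MXD proteins, with MNT, and with the glucose-sensing factors MLXIP (MondoA) and MLXIPL (ChREBP). MYC mRNA and protein are short-lived, and MYC drives growth in pancreatic ductal adenocarcinoma.

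METTL16 had 1546, 1641 and 1764 counts in si-NC samples and 571, 528 and 627 in si-METTL16 samples, so every label fits its target. The libraries held 15725298 to 18054436 counts. Levels are given in CPM, counts set to the same library total, in which 3 counts are worth 0.166 to 0.191. Mitochondrial genes took between 4.91% and 5.60% of counts. All 6 ductal markers passed the filter, with a summed level of 2855 to 3928 CPM carried mainly by KRT8 and KRT18. Within that list KRT19 had 2787, 3285 and 3737 counts in si-NC against 886, 1208 and 1520 in si-METTL16 samples, CDH1 had 294, 517 and 413 against 169, 178 and 214, and KRT7 had 112, 92 and 133 against 65, 59 and 58, none of them overlapping. KRT8, KRT18 and EPCAM overlapped between the groups. KRT18 had 16244, 21991 and 20678 counts against 20360, 20835 and 24457, and EPCAM had 157, 142 and 98 against 209, 168 and 145. Of 17 markers of immune, endothelial, fibroblast, acinar and endocrine cells, 2 passed the filter (CD14 and COL1A1). CD3E, CPA1 and GCG were at 0 in all 6 samples. The summed level of the 4 fibroblast markers was 323 to 374 CPM in the controls and 801 to 840 CPM in si-METTL16 samples, nearly all of it COL1A1, with DCN at 0 to 2 counts. The part of these marker differences in the results was not tested. In bulk RNA, fewer cells of a kind and less RNA per cell cannot be told apart.

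MYC (chromosome 8) was higher in every si-METTL16 sample than in every si-NC sample. In the order of replicates 1, 2 and 3, which every later listing keeps, MYC had 141, 356 and 81 counts in si-NC and 1353, 1129 and 1011 counts in si-METTL16 samples. After TMM scaling this gave 8.34, 21.0 and 4.62 CPM against 82.5, 72.4 and 56.2 CPM. The spread was wider among the controls than among the silenced samples: the highest si-NC sample had 4.54 times the lowest, and the highest si-METTL16 sample 1.47 times the lowest. The lowest si-METTL16 sample still held 2.68 times the MYC level of the highest control.

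The mean of MYC went from 11.3 ± 8.57 CPM in the controls to 70.4 ± 13.2 CPM after silencing (SD, n = 3 each), a 6.22-fold ratio, and the fitted log2 fold change was 2.64 (standard error, SE, 0.49). By this value MYC ranked 23 from the top among the 15089 genes. The SD of log2 CPM of MYC over the controls was 1.09, larger than in 99.4% of the 2513 genes with a mean within 0.5 log2 CPM of its own, whose median SD was 0.124. Over the si-METTL16 samples it was larger than in 87.0% of them. The size of the change rested on single controls: without si-NC replicate 2 the log2 fold change was 3.43, and without si-NC replicate 3 it was 2.26. CASC11, a long non-coding RNA on the opposite strand that overlaps MYC, had at most 3 counts in any sample.

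**Figure D1:**
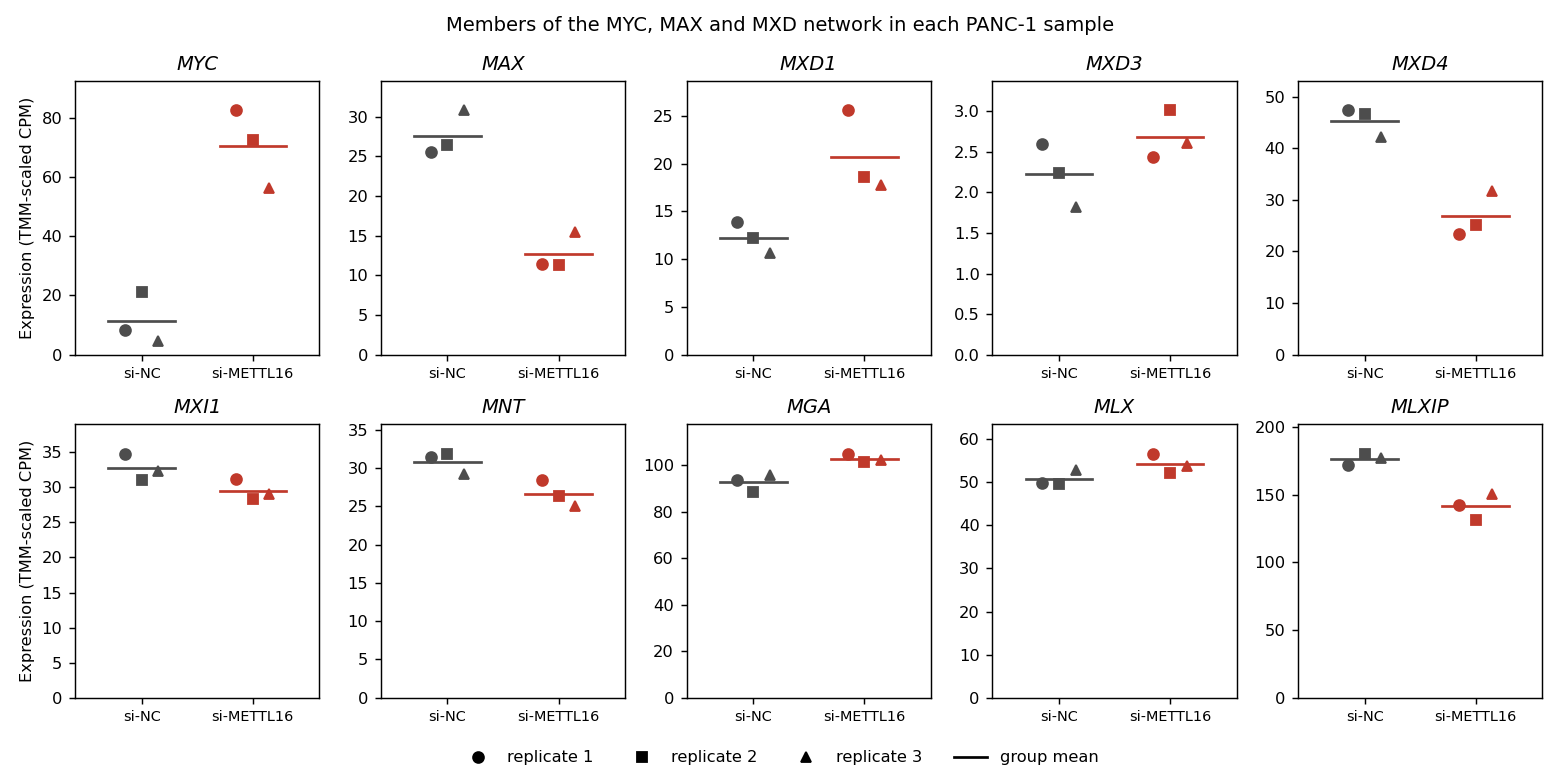
Expression of each of the 10 genes in TMM-scaled CPM, in panels with axes of their own that start at 0; points are the 3 si-NC and 3 si-METTL16 samples, marked by replicate number, and lines are group means. MYC lies between 4.62 and 21.0 CPM in the controls and between 56.2 and 82.5 CPM in si-METTL16 samples, while MAX, MXD4 and MLXIP are lower in all si-METTL16 samples and MXD1 is higher in all of them.

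The network did not move in 1 direction around MYC. Of the 9 genes other than MYC, 4 were called at an adjusted p under 0.05 by the quasi-likelihood test of edgeR, with Benjamini-Hochberg adjustment over all genes: MXD1 higher, and MAX, MXD4 and MLXIP lower. Of all genes tested 35.9% were called, 18.4% higher and 17.5% lower, so that 4 of 9 is close to the share over all genes. The groups did not overlap for 6 of these 9 genes, the 4 called and MNT and MGA, against 50.9% of all genes. The median log2 fold change was -0.03 over the 10 genes, MYC included, and -0.0045 over all genes tested.

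MAX, the shared partner through which MYC, the MXD proteins and MNT all bind DNA, fell while MYC was higher. Its CPM was 25.6, 26.4 and 30.8 in the si-NC samples and 11.5, 11.3 and 15.4 in the si-METTL16 samples. The groups did not overlap, and the lowest control lay well above the highest silenced sample. MAX fell to 46.2% of its control mean, from 27.6 ± 2.81 to 12.7 ± 2.33 CPM (SD, n = 3 each), with a log2 fold change of -1.12 (SE 0.15, adjusted p = 0.00157).

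MAX lies on chromosome 14 from 65006174 to 65102695 on the reverse strand (coordinates of the deposited table). It shares 56479 bases with FNTB, the farnesyltransferase beta subunit gene on the opposite strand, and 55630 bases with the readthrough gene CHURC1-FNTB. FNTB had 316, 415 and 455 counts in si-NC and 474, 422 and 448 in si-METTL16 samples, and CHURC1-FNTB had 243, 259 and 118 against 75, 62 and 145, so neither separated the groups. Whether counting used strand is not given in the sources used here, so reads of MAX and these genes could not be told apart where they overlap.

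The MXD family, whose members bind MAX in resting and differentiating cells and repress MYC sites through SIN3 corepressors, split. MXD1 (chromosome 2, 69897688 to 69942945) rose, with 13.8, 12.2 and 10.7 CPM in the controls and 25.6, 18.6 and 17.8 CPM in si-METTL16 samples. No sample overlapped, and si-METTL16 replicate 1 was the highest. The change of MXD1 was 1.69-fold, from 12.2 ± 1.59 to 20.7 ± 4.29 CPM (SD, n = 3 each; log2 fold change 0.76, SE 0.17, adjusted p = 0.0137), and without si-NC replicate 3 its adjusted p was 0.0492. MXD1 shares 7888 bases on the same strand with SNRNP27, a spliceosome gene with 765 to 925 counts in the 6 samples.

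MXD4 (chromosome 4, 2247432 to 2262294) fell, with 47.3, 46.6 and 42.2 CPM in the controls and 23.4, 25.2 and 31.8 CPM in si-METTL16 samples. All silenced samples lay below all controls, si-METTL16 replicate 3 nearest to them. The mean of MXD4 went from 45.4 ± 2.81 to 26.8 ± 4.40 CPM (SD, n = 3 each), 59.1% of control, with a log2 fold change of -0.76 (SE 0.13, adjusted p = 0.00391). MXD4 and MXD1 thus had fitted changes of equal size and opposite sign.

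MXI1 (chromosome 10, 110207605 to 110287365), the MXD family member also called MXD2, had 34.8, 31.0 and 32.3 CPM in the controls and 31.1, 28.3 and 29.1 CPM in si-METTL16 samples. The groups overlapped, and the log2 fold change of MXI1 was -0.15 (SE 0.09, adjusted p = 0.221). MXD3 (chromosome 5, 177301461 to 177312757), which unlike MXD1 and MXD4 is expressed in dividing cells, was the scarcest, with 44, 38 and 32 counts in si-NC and 40, 47 and 47 counts in si-METTL16 samples. Its groups overlapped as well, with a log2 fold change of 0.27 (SE 0.22, adjusted p = 0.378) whose 95% interval ran from -0.17 to 0.71, so a change of moderate size was not detectable at this depth.

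MNT and MGA, the larger repressors of the network, each shifted by a small amount that did not pass the test. MNT (chromosome 17, 2384060 to 2401118), the most widely expressed MYC antagonist and a neighbour of METTL16 on the same chromosome arm, had 31.4, 31.9 and 29.1 CPM in the controls and 28.4, 26.4 and 25.0 CPM in si-METTL16 samples. The silenced samples lay below the controls without overlap, and the log2 fold change of MNT was -0.21 (SE 0.09, adjusted p = 0.101). MGA (chromosome 15, 41621224 to 41773081), a scaffold that carries MAX into a Polycomb complex, had 93.8, 88.7 and 95.8 CPM in the controls and 105, 101 and 102 CPM in si-METTL16 samples. Its silenced samples lay above the controls without overlap, with a log2 fold change of 0.15 (SE 0.06, adjusted p = 0.0902).

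MLXIP, the MondoA subunit that carries glucose 6-phosphate sensing, fell, and its partner MLX did not pass the test. MLXIP (chromosome 12, 122078722 to 122147347) had 172, 180.4 and 177 CPM in the controls and 142, 132 and 150.4 CPM in si-METTL16 samples. Every silenced sample was below every control, at 80.1% of the control mean, with a log2 fold change of -0.32 (SE 0.07, adjusted p = 0.00867). MLX (chromosome 17, 42567068 to 42573239) had 49.9, 49.6 and 52.8 CPM in the controls and 56.6, 52.1 and 53.8 CPM in si-METTL16 samples, which overlapped (log2 fold change 0.09, SE 0.07, adjusted p = 0.344). MLX shares 930 bases with PSMC3IP on the opposite strand, which had 113 to 147 counts in si-NC and 326 to 382 counts in si-METTL16 samples, and with strand use not given the part of these reads in MLX was not tested.

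**Figure D2:**
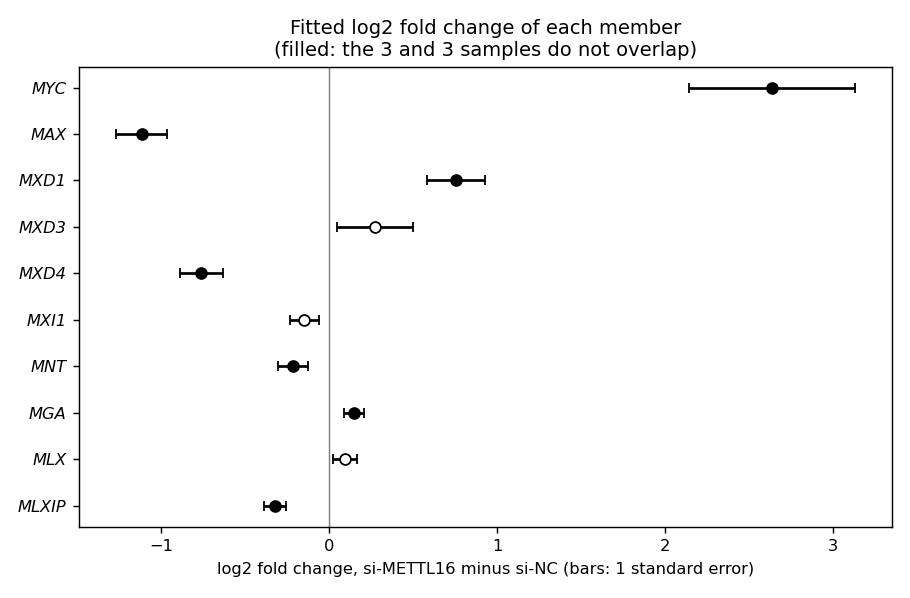
Fitted log2 fold change of each gene (si-METTL16 minus si-NC) with bars of 1 standard error; filled points mark genes whose 3 and 3 samples do not overlap. MYC stands at 2.64 with the widest bar, MXD1 at 0.76, MXD4 at -0.76 and MAX at -1.12, and the other genes lie between -0.32 and 0.27.

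Levels were compared between genes on the FPKM scale of the authors, which divides by gene length. In si-NC cells MLXIP was highest, at a mean of 8.62 FPKM, followed by MLX (5.89), MXD4 (4.99), MXI1 (3.75), MGA (2.92), MNT (2.70), MAX (1.86), MYC (1.21), MXD1 (0.940) and MXD3 (0.259). Neighbours in this order did not overlap between samples, except that the range of MYC, 0.493 to 2.24 FPKM, reached over both MAX and MXD1. In si-METTL16 cells MYC came first, at 7.39 ± 1.35 FPKM (SD, n = 3), but overlapped MLXIP (6.81), which in turn overlapped MLX (6.19). There MAX was ninth of 10, at 0.845 FPKM, below MXD1 at 1.56 FPKM.

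The gene lengths implied by the FPKM values were 1.32 (MNT) to 2.38 (MAX) times the summed exon length in GENCODE v44, so the order depends on the annotation. With GENCODE lengths MAX moved from rank 7 to 6 and MYC from rank 8 to 9 in si-NC cells, with MYC (1.85 CPM per kb) then below MXD1 (1.93), and in si-METTL16 cells MLX (12.7 CPM per kb) came before MYC (11.5) and MLXIP (10.2).

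The balance within the network was given as FPKM ratios in each sample. The ratio of MYC to MAX was 0.516, 1.26 and 0.237 in si-NC and 11.4, 10.1 and 5.77 in si-METTL16 samples, with means of 0.670 and 9.10. MYC mRNA was thus below or near that of MAX in the controls and several times above it after silencing. Because the gene length cancels, the 13.6-fold ratio of these means is the same with GENCODE lengths, although the ratios themselves are then lower, at 0.434 and 5.89.

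Against the summed FPKM of the 6 antagonists (MXD1, MXD3, MXD4, MXI1, MNT and MGA), MYC stood at 0.0547, 0.145 and 0.0330 in si-NC and 0.619, 0.580 and 0.431 in si-METTL16 samples. The ratio of means was 7.02, and 12.4 without si-NC replicate 2. The sum of all 6 antagonists exceeded MYC in every sample of both groups. Against the 4 MXD family genes alone (MXD1, MXD3, MXD4 and MXI1), MYC stood at 0.0843, 0.227 and 0.0526 in si-NC and 1.05, 0.990 and 0.706 in si-METTL16 samples, so that it matched their sum in silenced replicates 1 and 2. The antagonist sum itself was 15.6 ± 0.654 FPKM in si-NC and 13.6 ± 0.426 FPKM in si-METTL16 cells (SD, n = 3 each). MYC made up 2.69%, 6.57% and 1.53% of the summed FPKM of the 10 genes in si-NC and 23.6%, 22.5% and 17.4% in si-METTL16 samples. Since MYC chose the list, these ratios carry no test.

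Among the ratios without MYC, MAX over the antagonists was 0.106, 0.115 and 0.139 in si-NC and 0.0544, 0.0572 and 0.0747 in si-METTL16 samples, so the shared partner fell relative to its repressive partners in every silenced sample. The MXD4 to MXD1 ratio was 4.89, 5.47 and 5.66 against 1.31, 1.94 and 2.55. MXD4 remained the more abundant of the pair in all samples. MLXIP over MLX was 1.45, 1.53 and 1.41 against 1.06, 1.06 and 1.18. The summed FPKM of the 10 genes was 33.1 ± 0.861 in si-NC and 34.8 ± 1.497 in si-METTL16 cells (SD, n = 3 each), with overlapping samples.

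**Figure D3:**
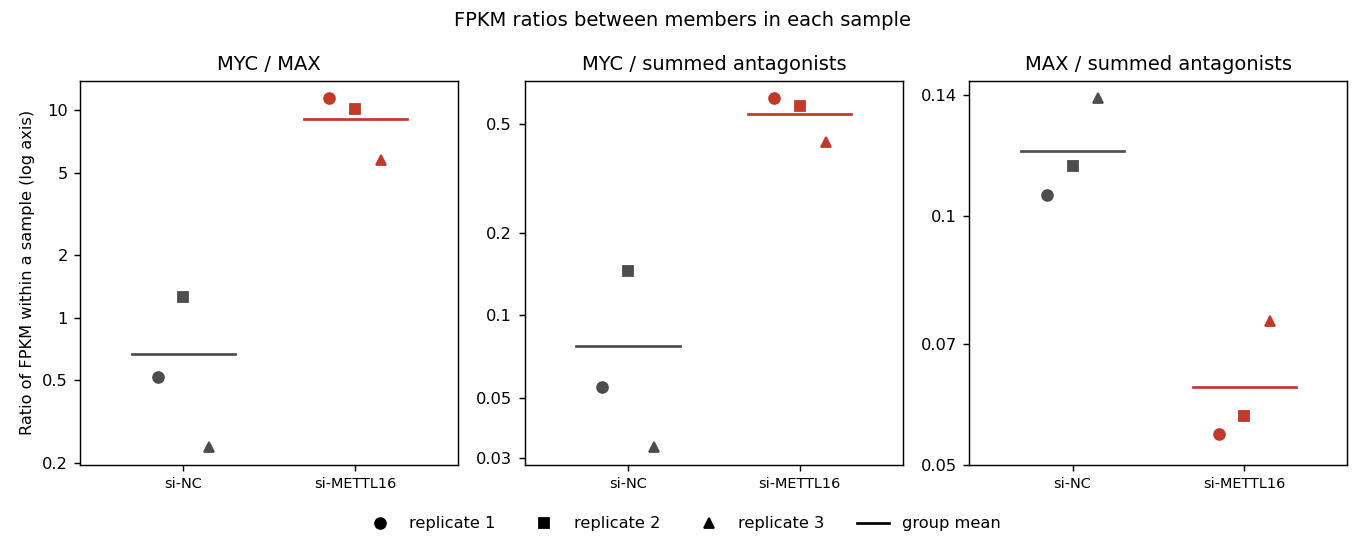
FPKM ratios within each sample on log axes: MYC over MAX, MYC over the summed antagonists (MXD1, MXD3, MXD4, MXI1, MNT and MGA) and MAX over the same sum; points are samples and lines group means. MYC over MAX runs from 0.237 to 1.26 in si-NC and from 5.77 to 11.4 in si-METTL16 samples, and MAX over the antagonists from 0.106 to 0.139 and from 0.0544 to 0.0747.

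The E-box CACGTG, the motif that MYC with MAX and the antagonists with MAX both bind, was sought in the promoters of the genes themselves, as RefSeq windows of 250 bases before to 50 after each start (GRCh38.p14). It reads the same on both strands. Windows were held for 9 of the 10 genes, 14 in all, and 3 contained CACGTG, those of MXD4, MNT and MLX; of all 35116 windows 7.26% did. The 30 bases around each are shown because they are the letters a MAX dimer would read in these genes, with the E-box in capitals.
MXD4: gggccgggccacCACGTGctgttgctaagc
MNT: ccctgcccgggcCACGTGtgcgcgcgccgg
MLX: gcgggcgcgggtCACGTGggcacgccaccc
The MXD4 stretch is chr4:2262330-2262359 on the reverse strand, its E-box beginning 238 bases before the start. The MNT stretch is chr17:2401236-2401265 on the reverse strand, with the E-box 193 bases before the start, and the MLX stretch is chr17:42567038-42567067 on the forward strand, with the E-box 50 bases before the start. Of these 3 genes MXD4 fell and MNT and MLX did not pass the test. The variant CACGCG, read on either strand, occurred in 3 of the 14 windows, of MXD3, MXI1 and MGA, against 11.4% of all windows. A match of letters describes the window and is not a measured site.

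Among the nearest relatives of the network, MYCN had 0 counts in all 6 samples, which allows up to 0.191 CPM in the shallowest library. MYCL was at 1.48 ± 0.174 CPM in the controls and 1.30 ± 0.0313 CPM in si-METTL16 cells (SD, n = 3 each), with overlapping samples and a log2 fold change of -0.18 (adjusted p = 0.584). MLXIPL, the ChREBP gene and second partner of MLX, had 1.72, 2.18 and 1.88 CPM in the controls and 1.04, 0.256 and 0.946 CPM in si-METTL16 samples. It lay lower in every silenced sample, with a log2 fold change of -1.35 at an adjusted p of 0.0509, just outside the threshold, while DESeq2 (adjusted p = 0.0365) and limma on voom values (adjusted p = 0.0411) placed MLXIPL inside it.

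MondoA targets went the same way as MLXIP: all 3 listed genes were called lower, beside 17.5% of all genes. Their median log2 fold change was -0.74. TXNIP, which restrains glucose uptake, went from 47.6 ± 2.37 to 31.3 ± 5.42 CPM (SD, n = 3 each; log2 fold change -0.60, adjusted p = 0.0115). Its paralog ARRDC4 went from 11.2 ± 1.25 to 6.47 ± 0.353 CPM (log2 fold change -0.79, adjusted p = 0.0043). No sample of either gene overlapped between groups. KLF10, a TGF-beta induced repressor, had 179, 168 and 166 CPM in the controls and 83.6, 76.7 and 147 CPM in si-METTL16 samples (log2 fold change -0.74, adjusted p = 0.0428). The call of KLF10 was lost without si-NC replicate 1, 2 or 3 or si-METTL16 replicate 1 or 2 (adjusted p between 0.0844 and 0.12). The ARRDC4 promoter holds an E-box 210 bases before the start, shown since it is the one E-box in the windows held. Those windows cover 2 of these 3 targets.
ARRDC4: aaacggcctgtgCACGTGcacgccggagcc
This stretch is chr15:97960481-97960510 on the forward strand.

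The SIN3 and NCOR corepressors through which MXD and MNT repress split in direction, as the MXD genes did. Of 10 genes, 3 rose and 4 fell (70.0% called, beside 35.9% of all genes), with a median log2 fold change of -0.16. SAP30, a SIN3 subunit, rose from 8.58 to 17.2 CPM (log2 fold change 1.00, adjusted p = 7.23e-04), and the deacetylase HDAC1 rose from 188 to 292 CPM (log2 fold change 0.64). Its paralog HDAC2 fell from 362 to 259 CPM (log2 fold change -0.49), and SIN3B, a scaffold that MXD proteins bind directly, fell from 66.4 to 45.9 CPM (log2 fold change -0.53, adjusted p = 0.0317). The call of SIN3B was lost without si-NC replicate 1 or 2 or si-METTL16 replicate 2 or 3 (adjusted p between 0.087 and 0.0935).

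Of 9 partners of MGA in its Polycomb complex, 2 rose, 1 fell and 6 did not pass the test (33.3% called, beside 35.9% of all genes; median log2 fold change 0.09). PCGF6, the ring finger protein that defines the complex, rose from 11.4 to 26.1 CPM (log2 fold change 1.20, adjusted p = 0.00368), and RYBP, a bridging subunit, rose from 69.0 to 97.4 CPM (log2 fold change 0.50). L3MBTL2, which reads histone methylation, fell from 47.5 to 35.1 CPM (log2 fold change -0.43, adjusted p = 0.00751).

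Among 14 coactivators and cofactors of MYC, 7 rose and 2 fell (64.3% called, beside 35.9% of all genes). The median log2 fold change was 0.26. RUVBL2, a helicase of the TIP60 complex, rose from 85.3 to 129 CPM (log2 fold change 0.60, adjusted p = 7.06e-04). ZBTB17 (MIZ1), with which MYC represses, rose from 14.4 to 22.1 CPM (log2 fold change 0.62, adjusted p = 0.00888). EP400 fell by 0.23 on the log2 scale (adjusted p = 0.0339), a call lost when any of the 6 samples was left out (adjusted p between 0.0514 and 0.0973).

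The regulators of MYC mRNA and protein held genes known for opposite effects on MYC. Of 16 tested, 7 rose and 2 fell (56.2% called, beside 35.9% of all genes), with a median log2 fold change of 0.17. CIP2A, an inhibitor of the phosphatase that marks MYC for decay, rose from 34.2 to 84.1 CPM (log2 fold change 1.30, adjusted p = 7.07e-04), and AURKA, a kinase that shields MYC family proteins from FBXW7, rose from 87.4 to 184 CPM (log2 fold change 1.07, adjusted p = 4.25e-04). FBXW7 itself, the ligase subunit that degrades MYC, also rose (log2 fold change 0.52, adjusted p = 0.00916), and was named after its values were seen. IGF2BP3, an N6-methyladenosine reader that stabilises MYC mRNA, fell from 211 to 150.1 CPM (log2 fold change -0.49, adjusted p = 0.00337), while its paralogs IGF2BP1 and IGF2BP2 rose by smaller amounts (log2 fold change 0.29 and 0.22). HUWE1, another ligase of MYC, fell by 0.18 on the log2 scale (adjusted p = 0.0407), and its call was lost without any single sample except si-METTL16 replicate 2 (adjusted p between 0.0542 and 0.0993). PVT1, the long non-coding RNA gene next to MYC, did not pass the test (log2 fold change -0.25, adjusted p = 0.218).

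Canonical targets of MYC were called in both directions. Of 23 ribosome biogenesis genes, 8 rose, 4 fell and 11 did not pass the test (52.2% called, beside 35.9% of all genes). Their median log2 fold change was 0.25. NOLC1, a nucleolar chaperone, rose from 96.4 to 190 CPM (log2 fold change 0.98, adjusted p = 0.00313), and MRTO4, a large subunit assembly factor, rose from 84.2 to 141 CPM (log2 fold change 0.75, adjusted p = 2.29e-04). Members that went against them were the helicase DDX18, which fell from 211 to 145 CPM (log2 fold change -0.54, adjusted p = 0.00334), and NOP58, a box C/D snoRNP core protein, which fell from 196 to 159 CPM (log2 fold change -0.30, adjusted p = 0.0424). The count of 4 that fell was 2 without si-NC replicate 2 or 3 or any one of the si-METTL16 samples. The call of NOP58 was lost without any single sample except si-NC replicate 3 (adjusted p between 0.0878 and 0.107).

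Of 16 metabolic targets, 8 rose and 2 fell (62.5% called, beside 35.9% of all genes), with a median log2 fold change of 0.27. The transferrin receptor TFRC rose from 365 to 828 CPM (log2 fold change 1.18, adjusted p = 1.62e-04) and the hexokinase HK2 from 28.9 to 51.2 CPM (log2 fold change 0.83, adjusted p = 0.0027). The glycolytic enzyme ENO1, one of the classical MYC targets, fell from 2863 to 2296 CPM (log2 fold change -0.32, adjusted p = 0.00135). The amino acid transporter SLC7A5 fell by 0.37 on the log2 scale (adjusted p = 0.0334), a call lost without si-NC replicate 1 or 3 or si-METTL16 replicate 2 or 3 (adjusted p between 0.0842 and 0.0972). The count of 2 that fell was 1 without si-NC replicate 1 or si-METTL16 replicate 2.

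E-boxes stood in 9 of the 22 promoter windows held for ribosome biogenesis genes (40.9%) and in 8 of 17 windows of metabolic genes (47.1%), beside 7.26% of all windows. They are shown for the named genes of these lists that hold one, HK2 and MRTO4, which rose, and SLC7A5, which fell, to set beside those of MXD4, MNT and MLX. Of the named genes of other lists, IGF2BP3, which fell, held 2 E-boxes and GADD45B, which rose, held 1. Windows with an E-box made up 33.3% for cell cycle targets, 15.4% for coactivators and 13.6% for regulators. They made up 11.8% for serum response genes, 10.0% for repressed genes and 8.33% for corepressors and for MGA partners. Repeated windows of a gene were counted once in the lists but not over all windows. The ribosome biogenesis, metabolic and cell cycle lists were made of known MYC targets, so their shares depend on that choice and are a description only.
HK2, upstream: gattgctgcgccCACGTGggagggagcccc
HK2, downstream: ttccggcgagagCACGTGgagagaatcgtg
MRTO4: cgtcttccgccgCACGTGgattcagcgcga
SLC7A5: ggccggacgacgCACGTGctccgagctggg
The HK2 stretches are chr2:74834964-74834993 and chr2:74835009-74835038 on the forward strand, with E-boxes 194 and 149 bases before the start, and the MRTO4 stretch is chr1:19251807-19251836 on the forward strand, with the E-box 15 bases into the gene. The SLC7A5 stretch is chr16:87869620-87869649 on the reverse strand, with the E-box 130 bases before the start.

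The cell cycle targets of MYC had the larger median, 0.74 on the log2 scale. Of 12 genes, 8 rose, 1 fell and 3 did not pass the test (75.0% called, beside 35.9% of all genes). E2F1, which drives S phase genes, rose from 10.8 to 34.3 CPM (log2 fold change 1.67, adjusted p = 2.14e-04), CDC25A, a CDK-activating phosphatase, from 10.8 to 29.2 CPM (log2 fold change 1.44, adjusted p = 0.00287), and CKS2, a CDK-binding protein, from 106 to 158 CPM (log2 fold change 0.58). The exception was CCND2, cyclin D2, at 1.26 CPM in the controls and 0.428 CPM in si-METTL16 cells (log2 fold change -1.56, adjusted p = 0.0165). Its call was lost without si-NC replicate 3 or si-METTL16 replicate 1 or 3 (adjusted p between 0.0552 and 0.058). The paper reports that METTL16 silencing raised the growth of PANC-1 cells. In this list a rise through MYC and a rise with faster division cannot be told apart.

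Of 10 tested genes that MYC is known to repress, 3 rose and 4 fell (70.0% called, beside 35.9% of all genes). Their median log2 fold change was -0.08. Without si-NC replicate 1, the count of 3 that rose was 1. CDKN1A, the gene of the CDK inhibitor p21, fell from 191 to 61.6 CPM (log2 fold change -1.63, adjusted p = 8.34e-05), and NDRG2, a gene named for its repression by the MYC family, fell from 2.24 to 0.756 CPM (log2 fold change -1.55, adjusted p = 0.0201). In the other direction, CEBPD, a differentiation factor, rose from 1.64 to 4.80 CPM (log2 fold change 1.55, adjusted p = 0.00643), and GADD45B, a stress gene, rose from 28.3 to 43.1 CPM (log2 fold change 0.60, adjusted p = 0.0412). The call of NDRG2 was lost without any one of the si-METTL16 samples (adjusted p between 0.0517 and 0.0664), and that of GADD45B without any single sample except si-METTL16 replicate 3 (adjusted p between 0.0699 and 0.12). The paper also reports less CDKN1A mRNA and protein after METTL16 silencing, and proposes that METTL16 acts on CDKN1A through N6-methyladenosine. Whether MYC had a part in the fall of CDKN1A was not tested.

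Serum response genes, which growth factors induce rapidly as they do MYC, had a median log2 fold change of 0.74 over the 16 tested. Of these, 9 were higher, 2 were lower and 5 did not pass the test (68.8% called, beside 35.9% of all genes). FOSB rose from 0.874 to 4.74 CPM (log2 fold change 2.42, adjusted p = 8.35e-04) and FOSL1 from 23.8 to 67.6 CPM (log2 fold change 1.503, adjusted p = 4.81e-04), both subunits of AP-1. JUNB, another AP-1 subunit, fell from 65.0 to 41.7 CPM (log2 fold change -0.64, adjusted p = 0.00107). The ERK phosphatase DUSP6 fell by 0.37 on the log2 scale (adjusted p = 0.0343), a call lost without si-NC replicate 1 or 3 or si-METTL16 replicate 2 or 3 (adjusted p between 0.0921 and 0.0996), which left 1 that fell.

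**Figure D4:**
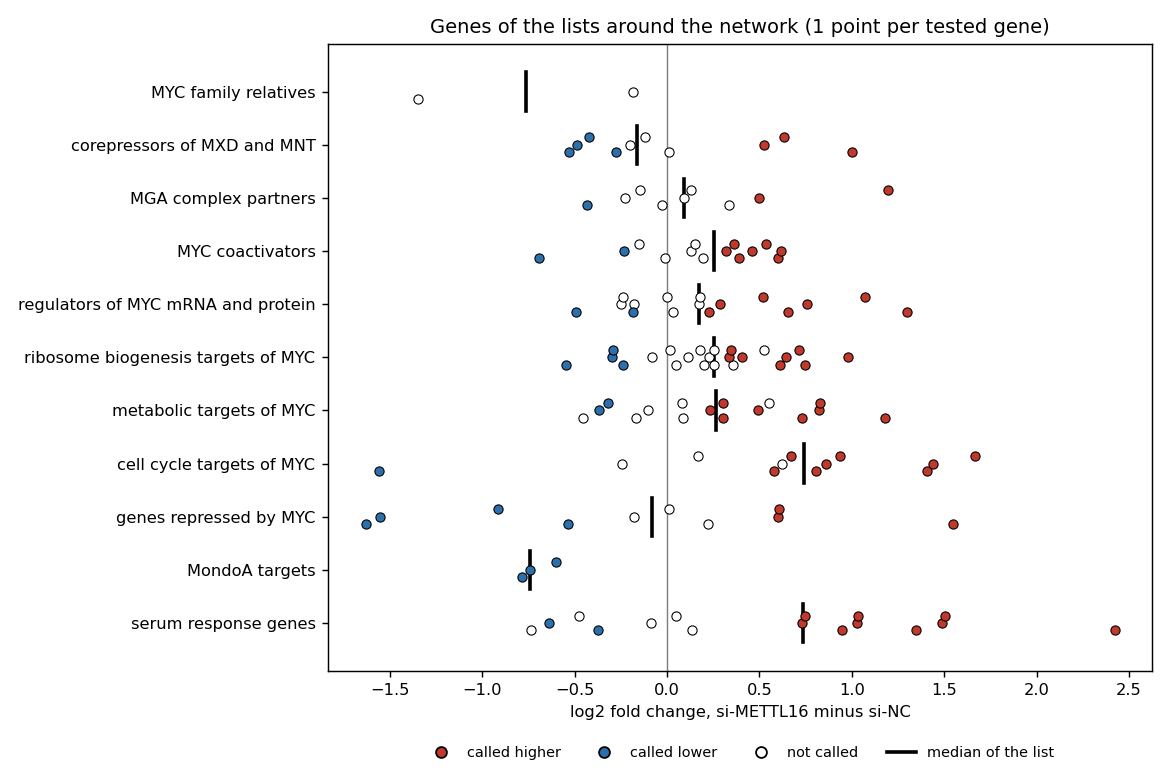
Fitted log2 fold change (si-METTL16 minus si-NC) of each tested gene of 11 lists around the network; red points were called higher, blue points lower, white points were not called, and black bars mark list medians. The medians of cell cycle targets and serum response genes lie at 0.74 and that of MondoA targets at -0.74, and most lists hold calls in both directions.

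The spread of MYC among the controls was set beside the mean log2 CPM of these lists, each relative to its si-NC mean. In si-NC replicates 1, 2 and 3, in which MYC was 8.34, 21.0 and 4.62 CPM, the ribosome biogenesis list stood at -0.02, 0.04 and -0.02 and the metabolic list at -0.03, 0.06 and -0.03. Replicate 2, the control with the most MYC, was thus the highest for both lists, though by little beside the si-METTL16 samples, at 0.19, 0.30 and 0.21 for ribosome biogenesis and 0.28, 0.27 and 0.25 for metabolism. The cell cycle list stood at 0.03, 0.02 and -0.05 in the controls and 0.51, 0.79 and 0.57 in silenced samples. For the genes repressed by MYC the values were -0.02, 0.08 and -0.06 against -0.10, -0.20 and -0.21, so the control with the most MYC was again the highest. NDRG2 of that list had 27, 59 and 29 counts in the controls, so part of this order rests on a low-count gene. In the serum response list replicate 2 was instead the lowest control, at 0.07, -0.07 and 0.00. The silenced samples stood at 0.67, 0.58 and 0.26. Part of the lower value of silenced replicate 3 comes from 1 gene of that list, IER2. It had 67.5, 63.6 and 56.7 CPM in the controls and 34.4, 74.6 and 3.95 CPM in si-METTL16 samples. With 3 controls these values are a description only.

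**Figure D5:**
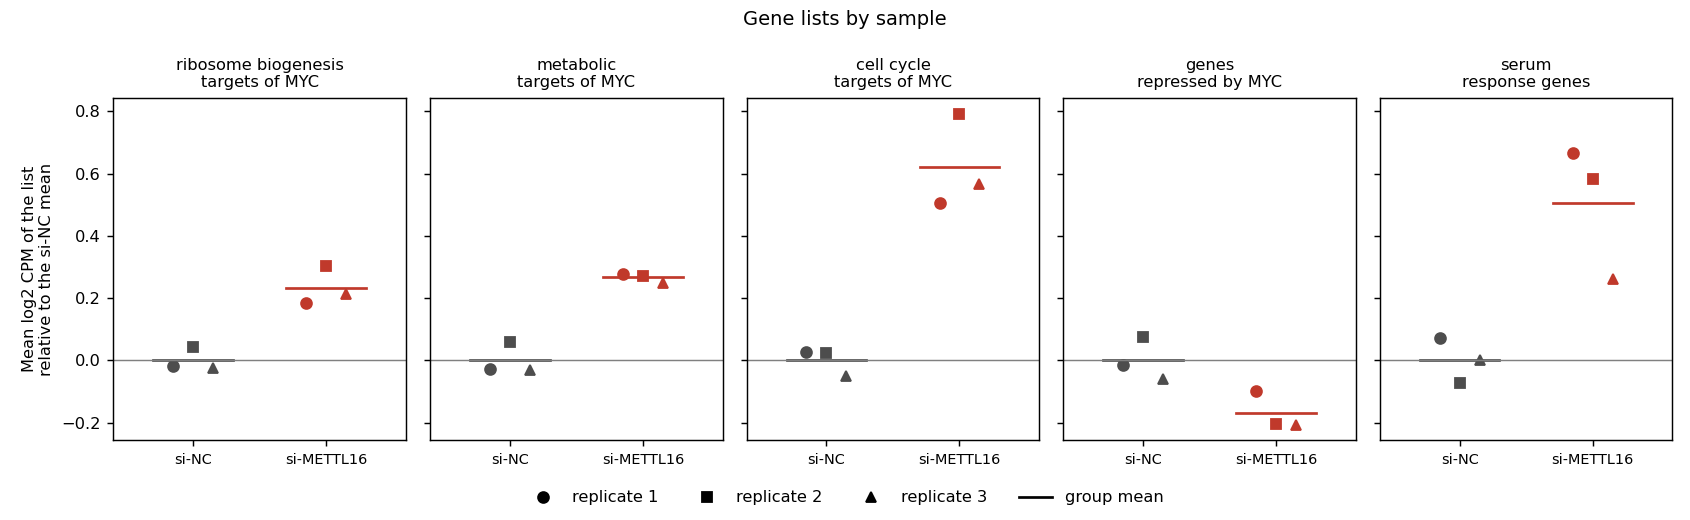
Mean log2 CPM of 5 gene lists in each sample, relative to the si-NC mean of the list (grey line at 0); points are samples marked by replicate number and lines group means. The si-NC samples stay between -0.07 and 0.08 in every list, and the cell cycle list lies at 0.51 to 0.79 in si-METTL16 samples.

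The genes whose profile was most like that of MYC were sought among 13917 genes by the root mean square difference of log2 CPM over the 6 samples, each gene centred on its own mean (median 1.596). The nearest were MARCHF4 (0.518), PIPOX (0.524), VGF (0.545), FBXO43 (0.552) and RRM2 (0.578). They were picked by this measure, so their place below the median was fixed by the choice. RRM2, a ribonucleotide reductase subunit, had 29.1, 50.3 and 35.3 CPM in the controls and 211, 241 and 298 CPM in si-METTL16 samples, and VGF, a secreted neuropeptide precursor, had 4.73, 6.66 and 4.28 against 58.2, 27.6 and 42.9 CPM. FBXO43, an inhibitor of the anaphase-promoting complex, had counts of 9, 20 and 7 against 44, 51 and 80, and MARCHF4, a membrane ubiquitin ligase, had counts of 57, 75 and 55 against 499, 494 and 546. PIPOX, pipecolic acid oxidase, had 0, 1 and 0 counts in si-NC and 12, 10 and 15 in si-METTL16 samples. In all 5 genes si-NC replicate 2 was the highest control, as it was for MYC, a feature that the measure of likeness favours. For PIPOX this order rested on 1 count, so its profile among the controls is near the floor.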

How the data were processed

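The authors deposited 1 table with raw counts per gene and FPKM values for the 3 si-NC and 3 si-METTL16 samples. The deposited counts are whole numbers without normalization, and the deposited FPKM values are the authors' counts divided by gene length and library total. The submitters' processing notes name HISAT2 2.0.4, StringTie 1.3.0 and GRCh38 (hg38), with no role or order, and the use of strand is not given in the sources used here. A spreadsheet had turned 27 symbols into dates, which were restored from gene identifiers.

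Counts were scaled by TMM and filtered with filterByExpr (minimum count 10, total 15). All 15089 remaining genes entered 1 quasi-likelihood fit (glmQLFit, then glmQLFTest; edgeR 4.0.16, R 4.3.3), group being the only term, with Benjamini-Hochberg adjustment over all of them and a threshold of 0.05. The methods of the study name limma, and a count test was used because counts were deposited. Libraries of 1 group differed by more than sampling noise, so none was counted once for another. The script was checked on simulated counts. Alternatives were DESeq2 1.42.0, limma 3.58.1 on voom values and on log2(FPKM + 1) or log2(FPKM + 0.1) for genes whose mean FPKM reached 1, other filters and scaling, a replicate block and each sample left out. Lengths from GENCODE v44 were added after the data had been seen.

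The 10 genes, the 11 gene lists and the tests were chosen with earlier results of these data known, and the lists were put together from general knowledge. Named genes were, in each list, those called with the 2 highest and the 2 lowest log2 fold changes, every gene of a list of 3 or fewer, METTL16, and the 5 genes with a profile nearest to MYC. A gene that this rule names is not reported here. FBXW7, IGF2BP1, IGF2BP2, PVT1 and IER2 and the genes that overlap network genes were named after their values were seen. Promoter windows were taken from RefSeq. Protein sequences were not used here. The precision is limited by 3 samples a group and, for low genes such as MXD3, by depth. The other experiments of the study were not analysed here.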

Additional observations from a re-analysis of the deposited data

How the results depend on the processing

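Under the 14 alternatives (12 for MXD3), each of the 9 genes other than MYC kept its direction and its side of the threshold, and MAX, MXD1, MXD4 and MLXIP were called in every one. The log2 fold change of MYC ran from 1.99 (on log2(FPKM + 1), which understates changes of low genes) to 3.43, and from 2.26 to 3.43 with 1 sample left out. On log2(FPKM + 1) MAX fell by 0.63 and MXD1 rose by 0.40. The adjusted p ran from 5.47e-09 to 0.00772 for MAX, from 8.82e-04 to 0.0492 for MXD1, from 3.71e-06 to 0.0174 for MXD4 and from 0.00216 to 0.0344 for MLXIP. Genes called ranged from 4159 (without si-NC replicate 3) to 5487 (limma on voom values). Same-numbered samples had correlations of 0.0253, 0.0371 and 0.0298 across genes, above the other pairs, which ran from -0.0388 to 0.0083. All were small, so whether the numbers pair the samples could not be settled. With a replicate block 5013 genes were called, 4731 of them shared with the fit without it, and the log2 fold change of MYC was 2.86. The ratio of MYC to the antagonists rose 6.39-fold on CPM, 6.75-fold with GENCODE lengths and 5.45-fold to 12.4-fold with 1 sample left out. Of 152 counts of called genes in the lists, both directions together, 150 stayed within 1.5 times, and the other 2 were the call of MLXIPL. Counts of fallen genes were less stable with 1 sample left out: they went from 4 to between 2 and 3 for ribosome biogenesis, from 2 to between 1 and 2 for metabolic targets and regulators, from 2 to 1 for coactivators, from 2 to between 1 and 3 for serum response genes, and from 1 to between 0 and 1 for cell cycle targets. For corepressors and for repressed genes they went from 4 to between 3 and 4. The 3 repressed genes that rose went to between 1 and 3. The 3 corepressors that rose and the 3 MondoA targets that fell each went to between 2 and 3.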
